A study of Mus musculus with 3 samples.

Results

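The 10 circadian clock genes described here are Arntl (the gene of BMAL1), Clock, Per1, Per2, Per3, Cry1, Cry2, Nr1d1 (REV-ERBα), Nr1d2 (REV-ERBβ) and Dbp. They were taken by symbol, as every probe set whose single gene symbol in the array annotation was one of these names, which gave 23 of 45101 probe sets and 10 of 18193 named genes. All were measured in gastrocnemius, a mostly fast-fibred calf muscle, of male C57BL/6J mice. The Control group ate the diet D12450B with 10% kcal fat, the HF group the diet D12492 with 60% kcal fat, and the HF + SFC group the same 60% kcal fat diet to which sodium ferrous citrate (SFC), a soluble iron salt, was added at 0.023% (w/w). The 3 groups shared strain, sex and tissue, and mice 6 weeks old were put on the diets for 15 weeks according to the series, although each sample is labelled as 21 months old. Each group was measured on 1 array of a mix of all its samples, so no difference below has a replicate check and no test was run. The methods place the last plasma draw of fasted mice in the morning and give no separate time of muscle collection for each group, and the part of collection time in the values below was not tested. In whole muscle, fewer cells of a type and less RNA per cell cannot be told apart.

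The circadian clock is a feedback loop that runs in nearly every cell, muscle fibres included. BMAL1 pairs with CLOCK and binds E-box sequences to switch on the Per, Cry and Nr1d genes and Dbp, and the PER and CRY proteins then hold BMAL1 and CLOCK back. In a linked loop the REV-ERB proteins repress Arntl, Clock, Cry1 and Nfil3 through ROR response elements while the ROR proteins activate them, and DBP with its relatives TEF and HLF activates genes through D-box sequences that NFIL3 represses. The transcripts of the E-box and D-box genes and those of the REV-ERB targets therefore peak at different times of day, and in skeletal muscle the clock is known to time glucose uptake and fuel use.

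Among the 10 genes, Dbp differed most between the arrays. Its signal was 2163 on Control, 2500 on HF and 3510 on HF + SFC, which is 1.16-fold higher on HF than on Control, 1.40-fold higher on HF + SFC than on HF and 1.62-fold higher on HF + SFC than on Control. It was the only 1 of the 10 genes to reach 1.5-fold between any 2 arrays on its brightest probe set, the probe set with the highest mean log2 signal, which stands for a gene unless stated. Per3 differed 1.36-fold and Per1 1.22-fold between their lowest and highest arrays, and the other 7 genes between 1.05-fold (Per2) and 1.19-fold (Cry1). All signals are MAS5 intensities, a linear brightness in arbitrary units that serves to compare 1 probe set between arrays and not 1 gene with another.

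**Figure D1:**
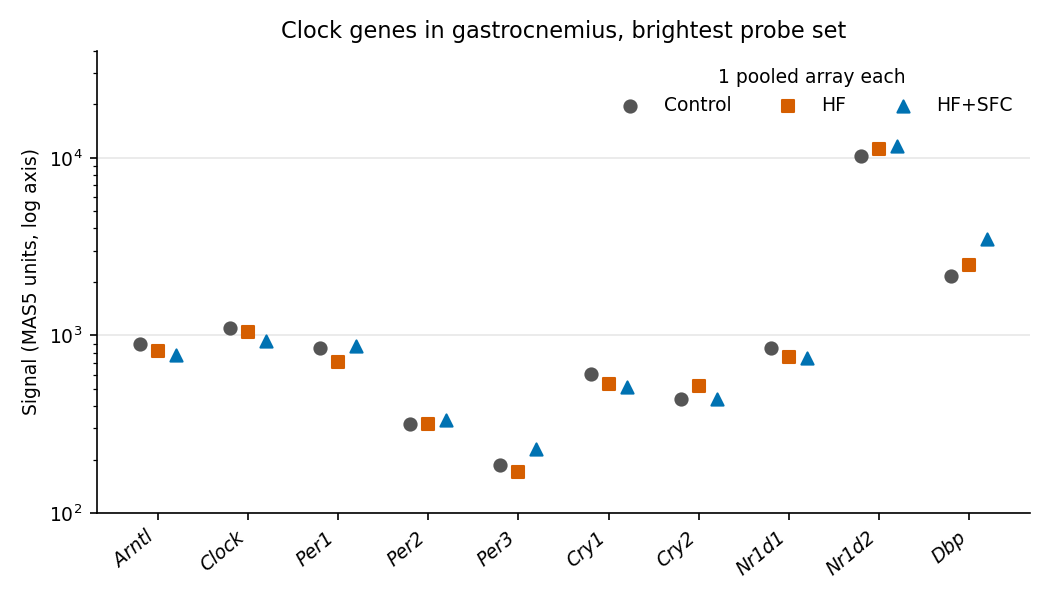
Signal of the brightest probe set of each clock gene (MAS5 units, log axis) on the 1 pooled array of Control (circles), HF (squares) and HF + SFC (triangles). Dbp stands at 2163, 2500 and 3510, whereas the 3 points of most other genes lie close together.

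The sequences around the start sites were searched for the motifs of these loops. Windows from 250 bases before to 50 after each annotated start were available from RefSeq (build GRCm38.p6) for 9 of the 10 genes, 13 windows in all, and not for Per2. They were searched on both strands for the E-box CACGTG, its variant CACGTT (E′-box), the D-box TTATGTAA, the nuclear receptor hexamer AGGTCA and the ROR response element. In that element an A/T-rich stretch is followed by AGGTCA or GGGTCA, so that a match need not hold the hexamer, although the match in Arntl does. Of 32851 RefSeq windows of the same length, 7.15% held the E-box, 4.68% the E′-box, 0.938% the D-box, 16.3% the hexamer and 0.384% the ROR response element. Among the clock genes, Per1 and Cry1 held the E-box, Cry1, Cry2 and Nr1d1 the E′-box, Per3 the D-box, Arntl, Clock, Per1 and Nr1d2 the hexamer, and Arntl the full ROR response element. The first 4 sequences below are shown because each carries the motif that its gene's textbook regulators bind, and that of Dbp because its signal differed most. They are written 5′ to 3′ along the gene, with the E-box, D-box or ROR response element in capitals.
Arntl, second start, positions 17 to 46 after it, chr7:113207528-113207557 (+): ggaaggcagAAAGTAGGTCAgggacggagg
Per1, first start, 250 bases before it, chr11:69098699-69098948 (+): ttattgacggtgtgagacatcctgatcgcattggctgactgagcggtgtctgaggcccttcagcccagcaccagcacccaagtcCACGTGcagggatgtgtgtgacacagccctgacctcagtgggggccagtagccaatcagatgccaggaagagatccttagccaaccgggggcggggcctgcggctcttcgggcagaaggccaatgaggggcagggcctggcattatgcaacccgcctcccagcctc
Cry1, 250 bases before the start, chr10:85185055-85185304 (-): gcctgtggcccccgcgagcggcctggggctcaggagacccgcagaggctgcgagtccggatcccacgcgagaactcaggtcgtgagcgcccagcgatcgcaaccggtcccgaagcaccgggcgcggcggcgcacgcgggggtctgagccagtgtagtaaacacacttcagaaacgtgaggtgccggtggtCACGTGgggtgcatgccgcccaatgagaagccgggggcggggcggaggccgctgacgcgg
Per3, 250 bases before the start, chr4:151044666-151044915 (-): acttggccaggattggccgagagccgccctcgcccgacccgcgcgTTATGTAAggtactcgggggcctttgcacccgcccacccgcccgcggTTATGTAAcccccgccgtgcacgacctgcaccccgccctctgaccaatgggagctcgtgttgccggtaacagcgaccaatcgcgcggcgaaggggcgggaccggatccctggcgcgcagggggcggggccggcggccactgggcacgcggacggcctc
Dbp, 250 bases before the start, chr7:45704997-45705246 (+): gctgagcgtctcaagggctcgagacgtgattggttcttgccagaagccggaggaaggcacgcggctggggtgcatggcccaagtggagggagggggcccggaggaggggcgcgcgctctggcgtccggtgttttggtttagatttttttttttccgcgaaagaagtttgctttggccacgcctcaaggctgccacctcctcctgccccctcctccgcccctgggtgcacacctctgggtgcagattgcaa
Counted from the start site, the E-box began at -166 in Per1 and at -60 in Cry1, and the 2 D-boxes of Per3 began at -205 and -158. In Arntl the ROR response element spanned bases 26 to 36 after the start. None of the 5 motifs was found in the Dbp window, which says only that these letters are not in this window. A match is a stretch of letters and not a measured binding site.

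**Figure D2:**
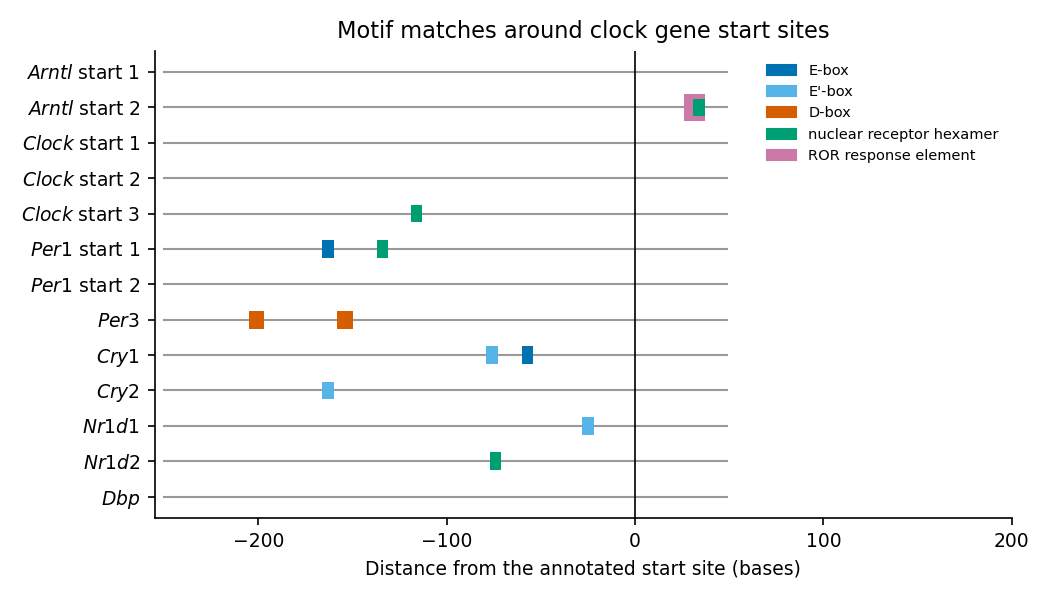
Motif matches in the 13 RefSeq windows of 9 clock genes, by distance from the annotated start in bases (negative before it). Each grey line is 1 window and each coloured block 1 match; the ROR response element of Arntl is drawn behind the hexamer it contains, and Dbp has no block.

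The activators were lower on both high-fat arrays, except that with each array centred on 5 skeletal muscle genes Arntl (log2 ratio 0.03) and Clock (0.08) were higher on HF than on Control. With that centring the median over all named genes was 0.163. Arntl, which encodes BMAL1, had signals of 892 on Control, 820 on HF and 776 on HF + SFC. Clock, the usual partner of BMAL1, had signals of 1098, 1043 and 932 in the same order. Both were thus highest in Control and lowest in HF + SFC, by 1.15-fold and 1.18-fold. The other probe sets did not all keep this order. The 2 next brightest of Clock had signals of 627, 501 and 563 and of 473, 351 and 419, lowest in HF rather than in HF + SFC, and the fourth, at 21.6, 3.94 and 41.4, lay below the median signal of all probe sets, which was 60.9. The other probe set of Arntl, also below that median, read 50.7, 68.8 and 16.2. Such dim probe sets are given only to account for each one, since the middle 95% of log2 ratios of HF to Control ran from -2.22 to 2.68 over all named genes, dim ones included, and from -0.46 to 0.49 over the 6716 bright genes, those with a mean signal above the 75th percentile of probe sets (384).

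Other genes that act with or against these activators were taken from a list of 8, of which 7 were measured. Npas2, which can replace Clock, had signals of 86.9, 33.7 and 46.5 in Control, HF and HF + SFC, and Arntl2, a paralog of Arntl, 78.3, 106 and 23.5, both with a mean below the median of all probe sets. Rora, whose protein activates Arntl, was brighter, with signals of 7431, 5919 and 7017. It was lowest in HF, 1.19-fold below HF + SFC, and 4 of its other probe sets above the median signal were also lower on HF than on Control, at log2 ratios from -0.62 to -0.17, while 2 others stood at -0.03 and 0.02. Of the 7 genes, 1 was higher on HF than on Control, 6 were higher on HF + SFC than on HF and 2 were higher on HF + SFC than on Control, with median log2 ratios of -0.26, 0.25 and -0.20.

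The 3 Period genes, whose proteins form the repressing complex with the cryptochromes, did not share 1 pattern. Per1, which responds quickly to hormones, had signals of 850 on Control, 713 on HF and 872 on HF + SFC, so that HF stood 0.839-fold against Control and HF + SFC 1.22-fold against HF. Among the 6716 bright genes, 312 had a ratio of HF + SFC to HF at or above that of Per1. Per2 gave 316, 316 and 333 and hardly differed. Per3, whose window held the D-boxes shown above, gave 186, 170 and 231, with HF + SFC 1.36-fold above HF and 1.24-fold above Control. No window of Per2 was searched, so the motifs of the 3 genes are not compared.

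Per3 had 6 probe sets and Per2 had 3, which allows a look at their spread. All 6 of Per3 were lower on HF than on Control, where the next brightest gave 108, 90.3 and 107 and the third 109, 94.2 and 91.0. Of the 6, 5 were higher on HF + SFC than on HF, but 3 were higher and 3 lower on HF + SFC than on Control, so that the excess of HF + SFC over Control was seen on some probe sets and not on others. The 3 dimmest, among them 1 at 64.0, 31.9 and 57.8 and 1 at 12.9, 10.4 and 54.4, lay below the median of all probe sets. The other probe sets of Per2, at 67.5, 85.8 and 88.5 and at 55.1, 68.5 and 54.1, were higher on HF than on Control where the brightest read the same on both.

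The cryptochromes Cry1 and Cry2, the strongest repressors of BMAL1 and CLOCK, differed in opposite directions on the HF array. Cry1 had signals of 605 on Control, 536 on HF and 510 on HF + SFC, the same descending order as Arntl and Clock. Cry2 had signals of 441, 518 and 438, highest in HF and nearly equal in the other groups. The log2 ratio of Cry2 minus that of Cry1 was 0.41 for HF against Control, -0.17 for HF + SFC against HF and 0.23 for HF + SFC against Control. Such a difference between 2 genes on the same arrays is not altered when a whole array is scaled by 1 factor. Each had 1 probe set, so no other probe set bears on it.

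Further repressors of the loop were in the list of partners. Bhlhe40 (DEC1), which competes for E-boxes, had signals of 3010, 2954 and 3885, with HF + SFC 1.32-fold above HF. Its relative Bhlhe41 (DEC2) gave 169, 166 and 175. Ciart (CHRONO), which silences BMAL1 targets and whose own window held 3 E-boxes, gave 267, 173 and 232, a log2 ratio of -0.62 for HF against Control and 0.42 for HF + SFC against HF. It was past 1.5-fold in the first of these, as was the dim Npas2, where 12.2% of all named genes were at least 1.5-fold lower. Npas2 and the dim Arntl2 were also at least 1.5-fold lower on HF + SFC than on Control (12.4% of all named genes), and Arntl2 than on HF (13.5%). Cipc, an inhibitor of CLOCK, gave 2778, 2324 and 2335. Bhlhe40 and Ciart, like Per1 and Per3, were thus higher on HF + SFC than on HF, while Cipc was near equal in both.

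The REV-ERB genes, which link the E-box loop to the ROR response elements of Arntl and Cry1, also parted. Nr1d1 had signals of 854 on Control, 757 on HF and 745 on HF + SFC, on its single probe set. Nr1d2 had signals of 10189, 11196 and 11718, and its other probe set gave 156, 181 and 189, in the same ascending order. The log2 ratio of Nr1d2 exceeded that of Nr1d1 by 0.31 for HF against Control, by 0.09 for HF + SFC against HF and by 0.40 for HF + SFC against Control. Nr1d1 was lower and Nr1d2 higher on both high-fat arrays than on the Control array, and both differed 1.15-fold between their lowest and highest arrays.

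Dbp is the output gene of the 10, a strongly rhythmic activator of D-box genes. Its other probe set gave 1364, 1594 and 2251, the same order and nearly the same ratios as the brightest, with log2 ratios of 0.22, 0.50 and 0.72 beside 0.21, 0.49 and 0.70 for HF against Control, HF + SFC against HF and HF + SFC against Control. Of 6716 bright genes, 47 had a ratio of HF + SFC to HF at or above that of Dbp and 37 a ratio of HF + SFC to Control at or above it, but 879 did so for HF against Control. The difference of Dbp thus lay mainly on the HF + SFC array. Over 2468 genes with at least 2 probe sets above the 75th percentile, the log2 ratios of the 2 brightest differed with an SD of 0.258, 0.235 and 0.217 in the 3 comparisons, a measure of disagreement between probe sets and not of the spread between mice.

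The relatives of Dbp were also measured. Tef, the closest in function, had signals of 5144 on Control, 5849 on HF and 6196 on HF + SFC, the same ascending order as Dbp and Nr1d2. Its other probe sets did not keep this order: the next, at 592, 688 and 638, was highest on HF, and the dimmest, at 147, 122 and 144, was lowest on HF. Hlf gave 483, 537 and 474. Nfil3, whose protein represses the D-box and whose gene is repressed by REV-ERB proteins, gave 1600, 1342 and 1146, a descending order opposite to that of Dbp. The log2 ratio of Dbp exceeded that of Nfil3 by 0.46, 0.72 and 1.18 for HF against Control, HF + SFC against HF and HF + SFC against Control, and that of Arntl by 0.33, 0.57 and 0.90. Of Tef, Hlf and Nfil3, 2 were higher on HF than on Control, 1 on HF + SFC than on HF and 1 on HF + SFC than on Control, with median log2 ratios of 0.16, -0.18 and -0.03.

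**Figure D3:**
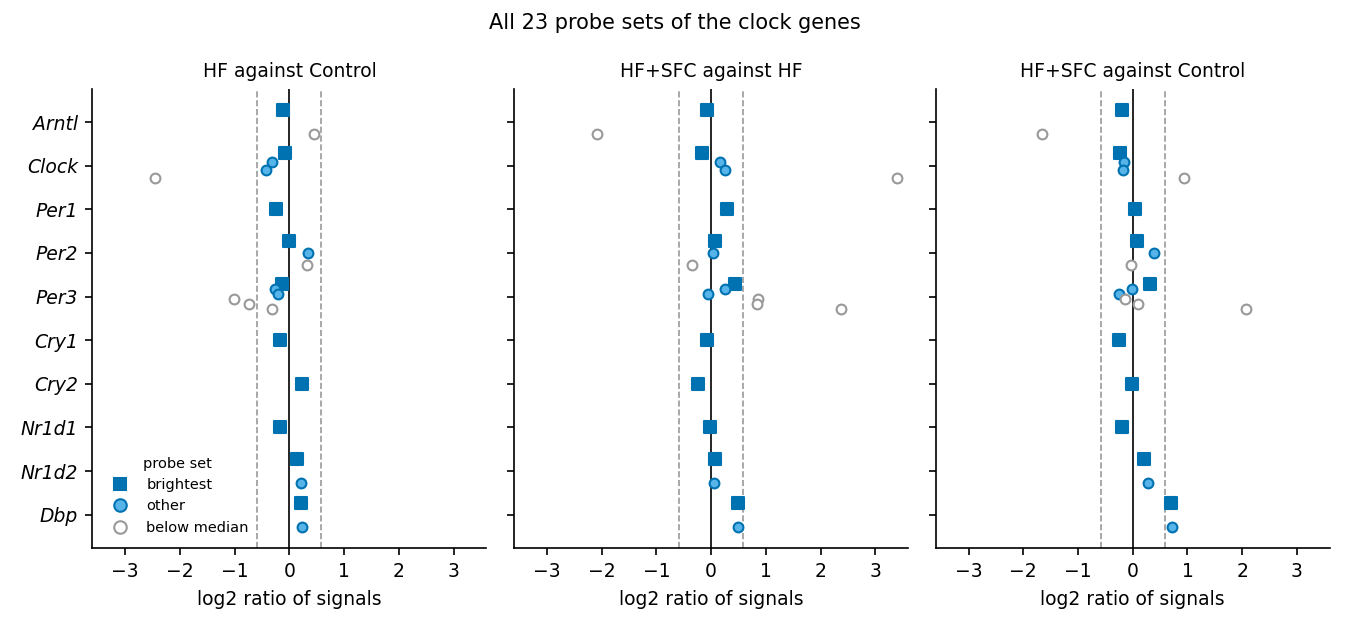
log2 ratio of signals for all 23 probe sets of the clock genes in each comparison, with the brightest of each gene as a square, others as filled circles and those below the median signal of all probe sets as open circles. Dashed lines mark 1.5-fold; both probe sets of Dbp lie past the line in HF + SFC against Control, and every other point past a line is an open circle.

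HF and Control were compared to ask how the high-fat diet differed in these genes. On the brightest probe sets, 4 of the 10 genes were higher on HF and 6 lower, and their median log2 ratio was -0.10 against 0.007 over all 18193 genes. None of the 10 was at least 1.5-fold higher, where 17.0% of all named genes and 1.53% of the 6716 bright genes were, and none at least 1.5-fold lower, where 12.2% and 1.07% were. The shares over all named genes include dim probe sets, whereas all 10 clock genes lay above the median signal and 8 above the 75th percentile, all but Per2 and Per3. The largest ratios were 1.17-fold for Cry2 and 0.839-fold for Per1, which 762 bright genes equalled or exceeded upward and 810 downward. All 10 clock genes therefore lay within the middle 95% of bright genes in this comparison. The sign of the clock gene median depended on the scaling, and the median of all named genes moved with it. With each array centred on its median probe set, the clock gene median was -0.18, beside -0.075 over all genes. With each centred on 5 skeletal muscle genes it was 0.06, beside 0.163 over all genes. There 7 of the 10 were higher, as were 12429 of 18193 named genes.

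HF + SFC and HF were compared to ask what differed with iron in the high-fat diet. On the brightest probe sets, HF + SFC was above HF for 5 of the 10 genes and below it for 5, and their median log2 ratio was 0.02 against 0.010 over all genes. With centring on the muscle genes 3 of 10 were higher, where 4124 of 18193 named genes were, and the median was -0.25, beside -0.26 over all genes. Again none was at least 1.5-fold higher (13.7% of all named genes and 0.298% of bright genes) and none at least 1.5-fold lower (13.5% and 0.655%). Dbp at 1.40-fold, Per3 at 1.36-fold and Per1 at 1.22-fold stood highest, and Cry2 at 0.845-fold and Clock at 0.894-fold lowest. Dbp and Per3 lay outside the middle 95% of bright genes, which ran from -0.38 to 0.35 on the log2 scale, and the other 8 genes within it, although Per3 was itself not among the bright genes.

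HF + SFC and Control were compared as the ends of the design. On the brightest probe sets, HF + SFC was above Control for 5 genes and below it for 5, and their median log2 ratio was 0.01 against 0.02 over all genes. Under median centring or muscle gene centring 3 of 10 were higher, where 7325 and 6946 of 18193 named genes were. The clock gene medians were then -0.082 and -0.102, beside -0.078 and -0.097 over all genes. Dbp alone was at least 1.5-fold higher, 1 of 10 genes where 16.5% of all named genes and 0.953% of bright genes were, and no gene was at least 1.5-fold lower, where 12.4% and 1.04% were. With centring on the muscle genes the log2 ratio of Dbp was 0.58, just under 1.5-fold, and 0 of 10 genes were past it. Cry1 at 0.843-fold, Clock at 0.849-fold, Arntl at 0.870-fold and Nr1d1 at 0.872-fold stood lowest. The middle 95% of bright genes, from -0.43 to 0.41 on the log2 scale, held the log2 ratios of all the bright members but Dbp. The 3 comparisons share their arrays pairwise, so their ratios are not independent of each other.

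**Figure D4:**
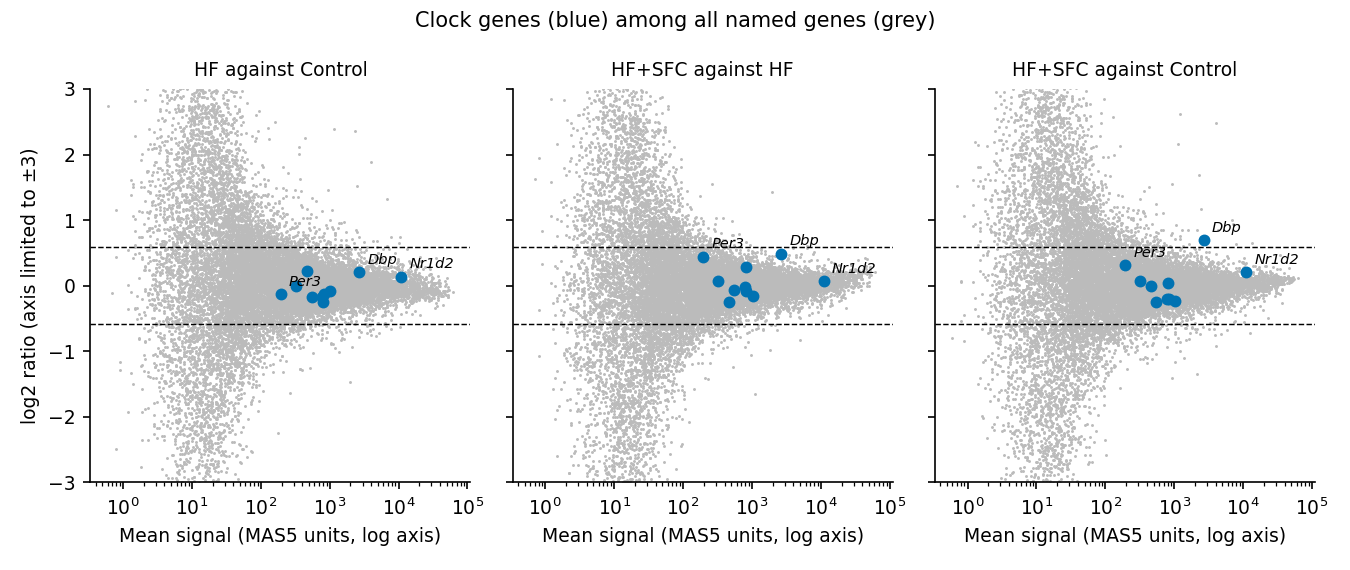
log2 ratio in each comparison against mean signal (MAS5 units, log axis) for 18193 named genes (grey) and the 10 clock genes (blue), with dashed lines at 1.5-fold; genes past ±3 are not drawn. Dim genes spread widely, and among the clock genes Dbp lies above the upper line in HF + SFC against Control.

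Clock genes were also grouped by the time of day at which their transcripts are known to peak. One class, of genes under ROR response elements (RRE class), held Arntl, Clock, Npas2, Nfil3 and Cry1, and the other, under E-boxes and D-boxes, held Per1, Per2, Per3, Cry2, Nr1d1, Nr1d2, Dbp, Tef, Hlf, Ciart, Bhlhe41 and Usp2, which encodes a deubiquitinase of clock proteins. In the RRE class none of 5 genes was higher on HF than on Control, 1 was higher on HF + SFC than on HF and none was higher on HF + SFC than on Control. That 1 was Npas2, whose signal was below the median of all probe sets. The 2 next brightest probe sets of Clock, unlike its brightest, were also higher on HF + SFC than on HF, at log2 ratios of 0.17 and 0.26. The median log2 ratios of the RRE class were -0.18, -0.08 and -0.25. With centring on the muscle genes 2 of 5, Arntl and Clock, were higher on HF than on Control, where 12429 of 18193 named genes were. The first median was then -0.020, beside 0.163 over all named genes. In the E-box and D-box class 6, 9 and 8 of 12 genes were higher, with medians of -0.009, 0.08 and 0.07. Under median centring 5 of 12 were higher on HF + SFC than on Control, where 7325 of 18193 named genes were. The median of this class was then -0.03, beside -0.078 over all named genes. The median of the E-box and D-box class exceeded that of the RRE class by 0.17, 0.16 and 0.31, a difference that scaling a whole array by 1 factor does not alter.

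Within the E-box and D-box class, Dbp, Usp2, Per3, Tef and Nr1d2 stood highest in HF + SFC against Control. Usp2 had signals of 8065 on Control, 7957 on HF and 10487 on HF + SFC, and its next probe set gave 5939, 6033 and 7051, highest in HF + SFC as well. Ciart and Nr1d1 stood lowest, with log2 ratios of -0.20 each. The class therefore did not differ as a block, and Nr1d1 was lower on both high-fat arrays like the RRE genes. Both classes were drawn up with earlier results of these arrays known, and 1 array per group gives no error for either median.

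**Figure D5:**
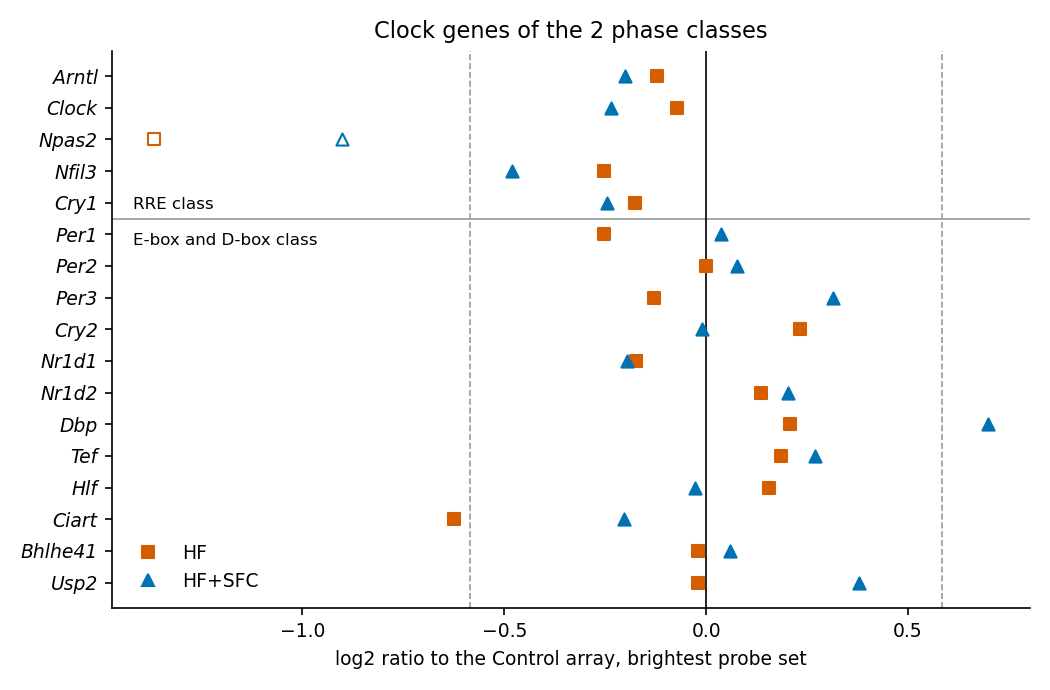
log2 ratio to the Control array for HF (squares) and HF + SFC (triangles) of the RRE class (above the grey line) and the E-box and D-box class (below it), on the brightest probe set. Open symbols mark Npas2, whose signal was below the median of probe sets, and dashed lines mark 1.5-fold; the 4 other RRE genes lie left of 0 on both arrays, and Dbp lies farthest right.

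Of 13 listed modifiers of clock proteins, 11 were measured, and 3, 8 and 6 of them were higher on HF than on Control, on HF + SFC than on HF and on HF + SFC than on Control, with median log2 ratios of -0.13, 0.17 and 0.02. The kinases Csnk1d and Csnk1e, which mark PER proteins for breakdown, had signals of 1462, 1334 and 1529 and of 1121, 990 and 1155, lowest in HF. Other probe sets of Csnk1d, at 1162, 1025 and 1090 and at 876, 601 and 876, were also lowest in HF. Those at 571, 603 and 558 and at 202, 248 and 242 were highest there. Nono, a partner of PER proteins, had the lowest ratio of HF to Control among those above the median signal, at 3063, 2313 and 2841, although its next probe set gave 1752, 1853 and 1761. Sfpq, which acts with Nono, had the highest, at 1151, 1359 and 1180, and the lowest of HF + SFC to HF, although its other 5 probe sets were all lower on HF than on Control, the brightest of them at 1051, 998 and 959. Btrc, a ubiquitin ligase subunit for PER proteins, gave 386, 298 and 323, although its next probe set, at 269, 283 and 245, was highest in HF. Under centring on the muscle genes 2 rather than 8 of the 11 were higher on HF + SFC than on HF, where 4124 of 18193 named genes were. The median of the 11 was then -0.103, beside -0.26 over all named genes. Fbxl21, at 9.10, 58.5 and 4.72, was below the median and the only 1 of the 11 modifiers past 1.5-fold, where 17.0% of all named genes were higher on HF than on Control and 13.5% lower on HF + SFC than on HF.

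Of 12 listed genes that the clock drives in muscle and other tissues, all were measured and 5, 7 and 6 were higher in the same 3 comparisons, with medians of -0.06, 0.05 and -0.006. Pfkfb3, which sets the pace of glycolysis, was the only 1 of the 12 past 1.5-fold, lower on both high-fat arrays, where 12.2% and 12.4% of all named genes and 1.07% and 1.04% of bright genes were, with signals of 5914 on Control, 3529 on HF and 3115 on HF + SFC, and its next probe set gave 588, 417 and 392. Klf15, a regulator of amino acid and lipid use, gave 1567, 1114 and 1056, and Cdkn1a, a cell cycle inhibitor, 1304, 1113 and 942. Tspan4 gave 312, 385 and 435 and was highest in HF against Control and HF + SFC against Control. Klf9, a glucocorticoid and clock target, gave 27153, 23979 and 28310 and was highest in HF + SFC against HF, whereas Wee1, a known E-box target, gave 306, 305 and 307. Pfkfb3, Klf15 and Cdkn1a thus followed the descending order of Cry1, Nfil3 and the brightest probe sets of Arntl and Clock. Tspan4 followed the ascending order of Dbp and of the brightest probe set of Tef. So did the brightest probe sets of Fmo2, at 275, 325 and 361, and of Dtx4, at 269, 274 and 311.

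Per1 responds to glucocorticoids, and clocks of peripheral tissues follow feeding and temperature, so lists of such genes were read beside the clock genes. Of 18 measured genes that answer to glucocorticoids or fasting, 4, 9 and 3 were higher on HF than on Control, on HF + SFC than on HF and on HF + SFC than on Control, with medians of -0.28, -0.004 and -0.22. Among them Fbxo32, a muscle atrophy ubiquitin ligase, gave 13711, 8834 and 9315, Ucp3 5431, 3409 and 3229, Cebpd 2783, 1874 and 1700 and Zbtb16 4861, 3432 and 3073. The other probe set of Cebpd, dimmer but above the median signal, gave 74.3, 225 and 133 and was instead higher on both high-fat arrays. Mt2, a metallothionein, gave 1326, 2157 and 1853, and Fkbp5, a glucocorticoid receptor target, 1278, 1618 and 1768. The next probe set of Fkbp5, at 459, 576 and 448, was highest on HF. The list was thus mostly lower on both high-fat arrays, but not all glucocorticoid targets were. Foxo3 gave 1219, 875 and 1094 and Mt1 2214, 2777 and 2106, the highest and lowest ratios of HF + SFC to HF in the list. The next probe set of Foxo3, at 686, 713 and 738, was not lower on HF and differed little.

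Of 11 temperature-responsive genes, 4, 5 and 3 were higher in the same comparisons, with medians of -0.03, -0.03 and -0.09. The heat shock genes Hspa1b and Hspa1a, near-identical copies whose probe sets cannot be fully told apart, gave 1087, 2117 and 1322 and 962, 1284 and 800. Cirbp, which rises in the cold and is linked to the clock, gave 956, 954 and 800. Hspe1, at 7092, 5937 and 6643, was lowest in HF against Control, Hspd1, at 8177, 7731 and 8735, highest in HF + SFC against HF, and Dnajb1, at 481, 546 and 596, highest in HF + SFC against Control. Of 14 immediate early genes, 5 were higher in each comparison, with medians of -0.05, -0.03 and -0.10. Dusp1 gave 2977, 4787 and 5389, Jun 4053, 2831 and 3076, Atf3 307, 407 and 264, and Egr2 85.5, 61.5 and 112. The other probe set of Egr2, at 61.8, 108 and 79.6, was highest rather than lowest on HF. That of Jun, at 1228, 1190 and 1142, hardly differed between Control and HF. Heat shock and immediate early genes were thus uneven, and their part in the values of Per1 and Dbp was not tested.

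Markers of the tissue stood beside these values. The 5 skeletal muscle markers were all present at a summed signal of 211280 on Control, 190068 on HF and 229317 on HF + SFC, all 5 being higher on HF + SFC than on HF by a median log2 ratio of 0.25 that was 0.05 after quantile normalization. The 10 fast fibre markers summed to 478895, 437239 and 513327 and the 8 slow fibre markers to 91697, 67671 and 87636, with median log2 ratios of HF + SFC to HF of 0.21 (0.010 after quantile normalization) and 0.42. Of 6 adipocyte markers, 6 were higher on HF than on Control and 5 on HF + SFC than on Control, with medians of 1.51 and 1.23 and a sum of 6289, 11919 and 9399. All 6 fibroblast and matrix markers and all 9 leukocyte markers were higher on both high-fat arrays than on Control, except that 4 of the 6 matrix markers were on HF under median centring, with sums of 30490, 38595 and 38204 and of 2853, 3732 and 3525, while the 6 endothelial markers summed to 4202, 4294 and 4311. None of these markers was at 0, the lowest being Lep at 45.8 in Control. Dbp was higher on HF + SFC than on HF, where 5 of 6 adipocyte markers were lower and all muscle markers higher, and the part of the mix of cells in the clock gene values was not tested. With each array centred on the muscle markers, the medians of all named genes moved too, and several list medians changed sign. For HF against Control, where the median of all named genes was 0.163, those of modifiers, outputs, temperature-responsive genes, immediate early genes and the E-box and D-box class turned to 0.025, 0.096, 0.125, 0.106 and 0.147. For HF + SFC against HF, where that of all named genes was -0.26, those of partners, modifiers, outputs and the E-box and D-box class turned to -0.025, -0.103, -0.225 and -0.190. For HF + SFC against Control, where that of all named genes was -0.097, those of modifiers and that class turned to -0.091 and -0.047.

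The controls that the files hold were not all alike between arrays. The median signals were 63.6, 67.4 and 68.0 on Control, HF and HF + SFC, and the 3′ to 5′ ratio of Gapdh, which is sensitive to RNA breakdown, ran from 0.820 to 0.842, while that of beta-actin was 1.09, 1.52 and 1.15 in the same order, so that HF stood apart, on the array where Per1, Rora and Ciart were lowest and Cry2 highest, and its part in these values was not tested. As group, array and labelling reaction coincide, they cannot be told apart.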

How the data were processed

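For each of 3 groups, a mix of its gastrocnemius samples, which the series calls cDNA, was measured on 1 Affymetrix GeneChip mouse array. The authors deposited intensity values on a linear scale for 45101 probe sets, and the submitters' processing notes name MAS5 with no version. With the top and bottom 2% of values removed, each array averaged 500.0. No detection calls were used.

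Gene names came from the array annotation and were brought up to date, by gene ID, with RefSeq symbols (GRCm38.p6), which matched 34741 probe sets. A single symbol was held by 34945 probe sets, several by 932 and none by 9160, and 64 were controls. Each of 18193 genes was represented by its brightest probe set, and log2 ratios of the deposited values, with nothing added, were read against the 1.5-fold used in the study. With 1 array per group, counts and medians were set beside those of all genes and no test was run. The number of arrays limits the precision.

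The 10 genes and the 17 gene lists (3 of clock partners, relatives and modifiers, 1 of outputs, 2 phase classes, 3 of temperature, glucocorticoid or fasting, and immediate early genes, 7 of cell markers, and the 10 genes) were chosen with earlier results of these data known. All partners and PAR bZIP relatives were named; in other lists, mainly genes past 1.5-fold and those with the highest or lowest ratio above the median signal. A few others were named after their values were seen.

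In 8 alternatives the probe set, normalization, offset, filter or threshold was changed. Centring on 5 muscle markers was added after seeing the data. Ratio recovery was tested on simulated data. Python 3.11.15, numpy 2.4.6, pandas 2.3.3 and matplotlib 3.10.9 were used. Some genes of the lists were not analysed here, nor were liver arrays.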

Additional observations from a re-analysis of the deposited data

How the results depend on the processing

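No paired analysis was possible because each group had 1 array. Dbp was higher on HF + SFC than on HF and Control under every alternative run: its log2 ratio was 0.48 to 0.50 and 0.60 to 0.72 under the planned ones, and 0.22 and 0.58 after centring on 5 muscle markers, an alternative chosen after seeing the data that moved the median of all genes to 0.16, -0.26 and -0.10 in HF against Control, HF + SFC against HF and HF + SFC against Control. That centring gave clock gene medians of 0.058, -0.25 and -0.10 and 0 genes at least 1.5-fold higher on HF + SFC than on Control, as did a 2-fold threshold (0). Median centring gave medians of -0.18 for HF against Control and -0.082 for HF + SFC against Control, beside -0.075 and -0.078 over all genes. With the mean of all probe sets, which includes dim ones of Arntl, Clock and Per3, the HF against Control median was -0.0077. In that setting 1 gene went past 1.5-fold downward on HF against Control. For HF + SFC against HF, 2 genes passed this threshold upward and 1 downward. For HF + SFC against Control, 1 passed it upward and 1 downward. The next brightest probe set gave a median of 0.021 for HF against Control, and leaving out probe sets that can bind several transcripts (no value for Cry1, so 9 genes) gave 0.00078. Each left 1 gene, Arntl, at least 1.5-fold lower on HF + SFC than on HF and 1, again Arntl, at least 1.5-fold lower than on Control. Both settings read Arntl on its dim probe set, below the median signal. Of 225 values of single genes under the alternatives, 197 moved by less than the SD between probe sets and 19 changed sign, of Arntl, Clock, Per1, Per2, Per3 and Nr1d2. Centring on the muscle markers moved 10 of 30 such values and changed 7 signs, and leaving out dim probe sets moved 0 of 30. Of 23 probe sets 6, of Arntl, Clock, Per2 and Per3, lay below the median signal.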
